A study of Homo sapiens with 36 samples.

Results

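The clusters described here are PAR-CLIP clusters that lie deep in the first intron of a protein-coding gene. A cluster was counted if its midpoint lay in intron 1 of the isoform whose exons sum to the greatest length (GENCODE 44 on GRCh38), on the strand of the gene, and at least 500 nt from every annotated exon of that strand. This rule uses position only, and it held for 12883 of the 278185 clusters in 18 lists, in 1724 genes. A further 21225 clusters met the same condition in later introns.

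The lists come from Flp-In T-REx HEK293 cells, a human embryonic kidney line, and cover FLAG immunoprecipitations (IP) and inputs of cells with doxycycline-inducible FLAG-SCAF4, of cells with doxycycline-inducible FLAG-SCAF8, and of the parental line without a tagged protein, whose IP is the control IP. There are 3 replicates of each. All cells received 100 μM 4-thiouridine (4SU) overnight and 500 μM for 2 h more and were irradiated at 365 nm with 2000 J/m2. The labels give 100 ng/mL doxycycline for the 2 tagged lines, whereas the methods name another dose and include the parental cells. The tagged proteins were expressed from an inducible construct in addition to the endogenous proteins. Each list joins the soluble and chromatin libraries of a replicate, and clusters also found in inputs or the control IP had not been removed. Read depth is unknown. Of the markers of the line, VIM held clusters in 6 of 6 SCAF IP lists and LIN28B in 5, whereas NEFM and PAX2 held none in any list. The liver, blood, pancreas and heart markers ALB, APOA1, PTPRC, CD3E, INS and MYH7 held none either.

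SCAF4 and SCAF8 are RNA-binding proteins with a domain that contacts the phosphorylated C-terminal repeats of the largest subunit of RNA polymerase II (RNAPII). In PAR-CLIP, RNA that has taken up 4SU is crosslinked to proteins by long-wave UV light, and the crosslinks are read as T-to-C changes. The first intron is often the longest of a human gene, it is removed while the gene is still being transcribed, and it holds many sequences that resemble signals for splicing and polyadenylation. RNA from deep inside it belongs to unspliced transcripts or to excised introns.

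To show what such regions look like, clusters of the 6 SCAF IP lists were merged into regions. The 7 regions below were in all 6 lists, in none of the 9 inputs and in no control IP list. Sequences are from GRCh38, 5′ to 3′ in the sense of the transcript, in DNA letters. Regions up to 300 nt are shown whole, and for longer regions the stretch covered by most lists is shown. The stretches of RAB40C and SLC25A10 were covered by 5 of the 6 lists each, and that of TACC3 by 6. Capitals mark CGG and CGA, the motif that differed most between IPs and inputs.
RAB40C, chr16:592905-592997, plus strand: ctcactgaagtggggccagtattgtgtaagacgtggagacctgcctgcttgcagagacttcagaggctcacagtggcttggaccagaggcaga
TACC3, chr4:1729131-1729223, plus strand: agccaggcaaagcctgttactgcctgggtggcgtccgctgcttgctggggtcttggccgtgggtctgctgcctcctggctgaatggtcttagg
PIEZO1, chr16:88751675-88751966, minus strand: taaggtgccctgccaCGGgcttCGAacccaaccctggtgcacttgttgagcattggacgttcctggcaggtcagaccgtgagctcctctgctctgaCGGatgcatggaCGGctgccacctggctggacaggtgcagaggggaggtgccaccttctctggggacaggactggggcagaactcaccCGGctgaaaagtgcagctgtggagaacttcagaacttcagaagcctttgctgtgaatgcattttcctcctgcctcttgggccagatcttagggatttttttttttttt
SLC7A1, chr13:29560178-29560408, minus strand: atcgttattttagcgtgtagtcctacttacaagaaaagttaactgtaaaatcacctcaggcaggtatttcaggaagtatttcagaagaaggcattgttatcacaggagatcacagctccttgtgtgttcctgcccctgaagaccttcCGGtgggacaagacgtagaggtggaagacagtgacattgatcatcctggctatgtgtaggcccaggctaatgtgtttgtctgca
SLC25A10, chr17:81713901-81713989, plus strand: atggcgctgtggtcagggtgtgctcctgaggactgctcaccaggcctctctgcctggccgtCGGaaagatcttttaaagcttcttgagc
ENSG00000141979, chr19:16608007-16608155, minus strand: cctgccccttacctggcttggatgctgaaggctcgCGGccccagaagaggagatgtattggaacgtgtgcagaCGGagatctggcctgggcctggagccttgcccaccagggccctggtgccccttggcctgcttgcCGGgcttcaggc
MYBL2, chr20:43669542-43669711, plus strand: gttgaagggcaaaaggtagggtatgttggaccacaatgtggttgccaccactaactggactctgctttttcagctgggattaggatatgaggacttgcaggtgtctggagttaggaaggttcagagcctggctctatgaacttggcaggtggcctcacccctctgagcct
The stretches of RAB40C, TACC3 and MYBL2 held no CGG or CGA, that of PIEZO1 held 5, and that of ENSG00000141979 held 3. The GC content of these stretches ran from 45.0% in SLC7A1 to 65.8% in ENSG00000141979. No sequence among them held the polyadenylation signal AATAAA or the 5′ splice site sequence GTAAGT.

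RAB40C encodes a small GTPase, TACC3 a spindle protein, PIEZO1 a mechanically gated ion channel, SLC7A1 a transporter of cationic amino acids, SLC25A10 a mitochondrial dicarboxylate carrier and MYBL2 a transcription factor of the cell cycle. ENSG00000141979 is a gene without a symbol that overlaps MED26. Their midpoints lay 3635 nt from the gene start in RAB40C, 16554 nt in TACC3, 33399 nt in PIEZO1, 35395 nt in SLC7A1, 1887 nt in SLC25A10, 20123 nt in ENSG00000141979 and 2608 nt in MYBL2. Distances are from the outermost annotated start of the gene. The first intron of the isoform used for TACC3 was only 2099 nt long and began well downstream of that start. The next regions by the same order were in 5 of 6 lists, in QSOX2, UBE2J2, ENSG00000288715, RPTOR and FNIP1.

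For comparison, the stretches below were covered by 17 lists each, and come from the regions that recurred most in the input and control IP lists.
ISG15, chr1:1007068-1007183, plus strand: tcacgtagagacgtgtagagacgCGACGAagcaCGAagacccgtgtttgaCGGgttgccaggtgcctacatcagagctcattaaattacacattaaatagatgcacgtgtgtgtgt
GATAD2B, chr1:153888781-153888817, minus strand: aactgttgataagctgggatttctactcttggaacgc
CSNK1D, chr17:82267345-82267429, minus strand: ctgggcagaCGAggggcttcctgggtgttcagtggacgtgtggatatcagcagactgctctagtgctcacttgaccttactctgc
The regions of ISG15, an interferon-induced ubiquitin-like protein, GATAD2B, a subunit of the NuRD complex, and CSNK1D, a casein kinase, were each in 6 SCAF IP lists, 9 inputs and 2 control IP lists. The others of this kind were in TMEM181, TOP3B and ENSG00000275778. The region in ISG15 lay 5623 nt from the gene start, that in GATAD2B 34492 nt and that in CSNK1D 6046 nt. Within intron 1 they lay at 79.3%, 35.9% and 75.3% of its length. Among the regions shown, those shared with inputs and those absent from them both included short and long distances from the gene start.

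First, the share of each list that lay deep in intron 1 was compared. It was 3.29%, 4.88% and 4.25% in the SCAF4 IP replicates 1 to 3, and 4.52%, 3.54% and 4.84% in the SCAF8 IP replicates. It was 5.77%, 4.89% and 4.92% in the SCAF4 inputs and 5.83%, 3.78% and 3.81% in the SCAF8 inputs. The IP and input ranges overlapped, and the IP mean of 4.22% ± 0.670 (SD, n = 6) lay below the input mean of 4.83% ± 0.898 (SD, n = 6; difference −0.615 percentage points, two-sided exact permutation p = 0.21, adjusted p = 0.508). Adjusted p-values are after Benjamini-Hochberg over all 64 comparisons between lists, and none of them was below 0.05. Without replicate 1 the difference was 0.0251 points, with the sign turned. The smallest p that 6 lists against 6 can give is 0.00216.

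The control IP lists held few such clusters, 284 of 9638 (2.95%), 11 of 2314 (0.475%, 95% exact binomial interval 0.238 to 0.849) and 35 of 1621 (2.16%). These intervals cover counting error only. All 6 SCAF IP lists lay above the control IP lists (exact permutation p = 0.0238, the smallest that 6 against 3 can give, adjusted p = 0.139). The inputs of the parental line stood apart in the other direction, with 7.36%, 6.81% and 7.44%, above all 6 inputs of the tagged lines (exact permutation p = 0.0238, adjusted p = 0.139). This comparison was added after the values had been seen. With all 9 inputs in place of the 6 own inputs, the IP share was 1.40 points below the inputs (exact permutation p = 0.0388), and with the higher-scoring clusters of each list, cut at its median score, it was 2.12 points below the own inputs (exact permutation p = 0.0108).

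**Figure D1:**
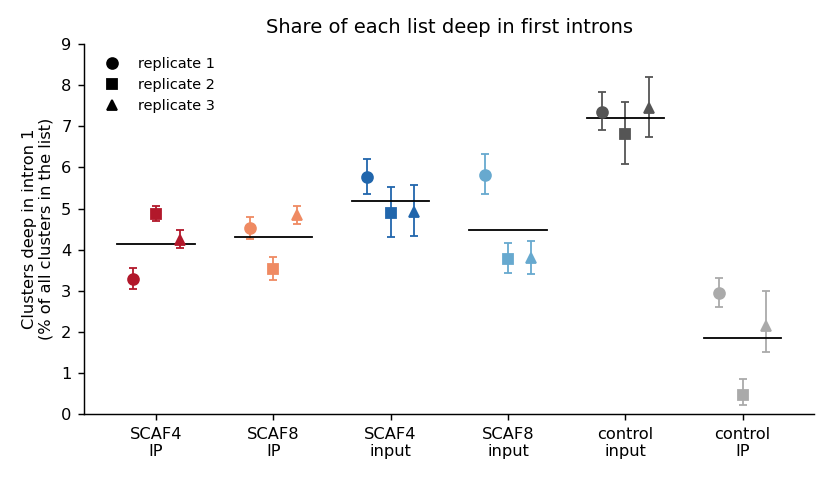
Share of the clusters of each list that lay deep in intron 1, in percent, for the 3 replicates of each group. Bars are 95% exact binomial intervals and black lines are group means. The control inputs lie between 6.81% and 7.44%, above every other list, and the control IP lists between 0.475% and 2.95%.

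Next, the density of clusters in intron 1 was set against that in later introns. The parts at least 500 nt from exons came to 226 Mb in first introns of 12850 genes and to 636 Mb in later introns. In every SCAF IP list the density was higher in intron 1, by 1.55 to 1.94 times (geometric mean 1.76, mean log2 0.82 ± 0.12, SD, n = 6; exact sign-flip p = 0.0312, the smallest for 6 lists, adjusted p = 0.041 over 42 tests within lists). The inputs gave nearly the same ratio, 1.40 to 1.93 times (geometric mean 1.65, higher in 9 of 9 lists). IP and own inputs differed by 0.08 in log2 (exact permutation p = 0.426, adjusted p = 0.749). The control IP lists, with 284, 11 and 35 clusters, had ratios of 0.596 to 1.42 (geometric mean 0.994), below all 6 SCAF IP lists (exact permutation p = 0.0238, adjusted p = 0.139).

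A second measure was taken within genes. Compared with the number expected from the eligible length of intron 1 within the same genes, the SCAF IP lists held 1.16 to 1.30 times as many clusters in intron 1 (geometric mean 1.22, 6 of 6 lists), and the inputs 1.12 to 1.32 times (geometric mean 1.22). The expected number was a share of all deep intronic clusters of a gene, those of intron 1 included. Its size thus cannot be set against the density ratio above, which divides by later introns only. The control IP lists had a geometric mean of 0.818, also below all 6 SCAF IP lists (exact permutation p = 0.0238, adjusted p = 0.139). By intron number, the SCAF IP lists together held 114 clusters per Mb in intron 1 of genes with any deep intronic cluster, 72.9 in intron 2, 60.7 in intron 3 and 52.3 in introns 7 and beyond. The inputs fell likewise, from 54.2 per Mb in intron 1 to 36.5 in intron 2 and 29.5 in introns 7 and beyond. The genes in these counts by intron number were chosen by the same clusters, which alters the eligible length. The fall was not tested and is not given over all genes.

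Once distance from the gene start was taken into account, the ratio turned over between 5 and 100 kb and in the sum over distance bands. Over all genes, in bands from 5 to 100 kb from the start, intron 1 held fewer clusters per Mb than later introns at the same distance in every SCAF IP list. The mean log2 ratio was −0.42 between 5 and 10 kb, −0.58 between 10 and 20 kb, −0.43 between 20 and 50 kb and −0.40 between 50 and 100 kb (exact sign-flip p = 0.0312 each, adjusted p = 0.0547 over 14 tests). Nearer than 2 kb it was 0.46, with 5 of 6 lists positive, between 2 and 5 kb it was −0.05, and beyond 100 kb it was 0.47 with 6 of 6 lists positive. Over genes with a deep intronic cluster in any list, the ratio was −0.04 nearer than 2 kb, with 3 of 6 lists positive, and −0.45 between 2 and 5 kb, with 0 of 6 positive. There the bands from 2 to 100 kb were all negative in 6 of 6 lists. The band beyond 100 kb was positive in 6 of 6. These genes were chosen by clusters of the same lists, which alters the eligible length per band, so no p-value is given for them. Summed over the bands, the SCAF IP lists held 0.833 times as many clusters as later introns at equal distance (log2 −0.26 ± 0.05, SD, n = 6; lower in 6 of 6 lists, exact sign-flip p = 0.0312, not adjusted), and the inputs 0.781 times (log2 −0.36, lower in 9 of 9 lists). Both kinds of lists thus had a higher density in first introns as a whole. Taken by distance, their density was lower in the sum over bands. The band beyond 100 kb, where the mean ratio was positive, has no upper end. Distance is thus not matched inside that band, which also enters the sum. These bands were added after the first ratio had been seen.

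**Figure D2:**
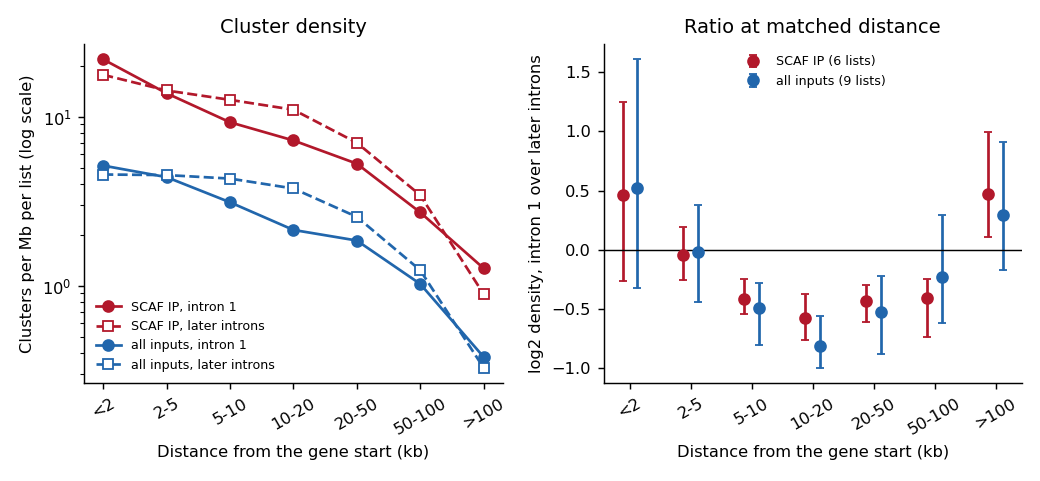
Left, clusters per Mb and list (log scale) in eligible parts of intron 1 (filled, solid) and of later introns (open, dashed) by distance from the gene start in kb, for the 6 SCAF IP lists and all 9 inputs. Right, mean log2 ratio of the densities in each band with the lowest and highest list as bars. From 5 to 100 kb the IP ratios lie between −0.58 and −0.40. The band beyond 100 kb has no upper end, so distance is not matched inside it.

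The distance of the clusters themselves from the gene start had a median of 9997.5 nt, 9510 nt and 9647 nt in the SCAF4 IP replicates and of 13102 nt, 8203 nt and 9911 nt in the SCAF8 IP replicates. In the own inputs the medians ran from 8016 to 13954 nt. The ranges overlapped almost fully (exact permutation p = 0.483 on log10 values, adjusted p = 0.792). The share nearer than 5 kb was 33.5% ± 3.52 (SD, n = 6) in SCAF IP lists and 31.3% ± 4.18 (SD, n = 6) in own inputs (exact permutation p = 0.335, adjusted p = 0.671).

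The SCAF IP clusters ranged from 514 nt to 1274190 nt from the gene start, and 10% lay within 1612 nt. Of the 8515 clusters, 368 (4.32%) lay beyond 100 kb, and in the inputs the share was 4.09%. The 11 clusters of control IP replicate 2 all lay within 5 kb. In the control IP medians were 12872 nt, 1815 nt and 6363 nt, a spread that rests on very few clusters.

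The annotated start is not always the start in use. In 36.6% of the SCAF IP clusters and 37.5% of the input clusters, another annotated transcript start lay inside intron 1 and upstream of the cluster. An exon of another isoform of the same gene lay upstream within the intron in 38.1% and 41.1%. Of all 12883 clusters, 606 (4.70%) also lay deep in a later intron of another gene on the strand, and 172 (1.34%) lay in intron 1 of more than 1 gene. An exon on the opposite strand was overlapped by 1.48%.

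Within the intron, clusters leaned towards the 5′ end. With the intron cut into 10 equal parts, the part at the 5′ end held 17.0% of the SCAF IP clusters, part 5 held 10.1% and the part at the 3′ end held 3.34%, although the 500 nt beside both splice sites were left out. The mean position was 0.380 of the intron length, against 0.502 for clusters placed evenly over the eligible parts of the same introns (difference −0.122 ± 0.0116, SD, n = 6; below 0 in 6 of 6 lists, exact sign-flip p = 0.0312, adjusted p = 0.041). The inputs leaned as far, by −0.130 ± 0.0177 (SD, n = 9; 9 of 9 lists, exact sign-flip p = 0.00391, adjusted p = 0.0149). IP and own inputs differed by 0.00723 (exact permutation p = 0.478, adjusted p = 0.792).

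**Figure D3:**
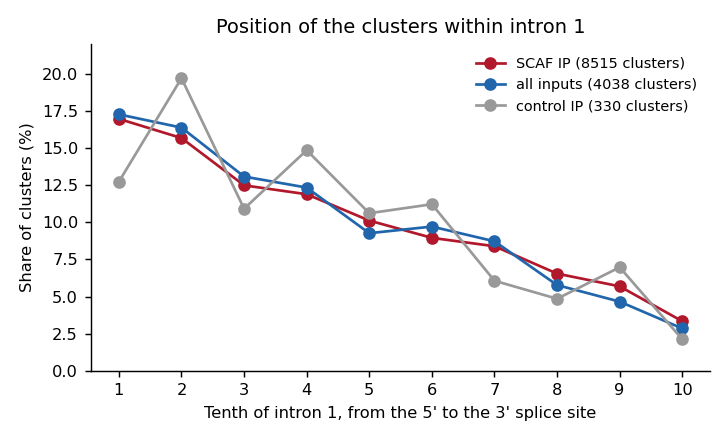
Share of clusters in each of 10 equal parts of intron 1, from the 5′ to the 3′ splice site, for the SCAF IP lists, all inputs and the control IP lists, pooled over lists. The SCAF IP and input lines fall together from 17.0% and 17.3% at the 5′ end to 3.34% and 2.85% at the 3′ end.

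Longer first introns were hit more often, up to 100000 nt, but less densely. Introns of 2000 to 5000 nt held SCAF IP clusters in 6.66% of 3379 genes, and those of 50000 to 100000 nt in 27.9% of 771 genes. Beyond 100000 nt the share was 27.5% of 462 genes. The density fell over the same classes from 116 to 32.3 clusters per Mb, and to 14.9 per Mb in introns of more than 100000 nt. In the inputs it fell from 47.2 to 15.04 and 9.55 per Mb.

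The sequence at the clusters was read in 100 nt around the midpoint, on the transcribed strand only. The share with CGG or CGA in SCAF IP lists ran from 48.9% to 57.3% (median 52.8%) and own inputs from 38.8% to 48.4% (median 43.3%). Each IP list lay above each own input, by 9.66 percentage points on average (exact permutation p = 0.00216, the smallest possible, adjusted p = 0.0693). In windows of equal length tiled over all eligible first introns the share was 33.6%, below both, and the control IP lists had 53.1% on average, 0.221 points below the SCAF IP lists (exact permutation p = 0.929, adjusted p = 1).

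CTCC or CACC behaved likewise between lists, with 36.2% to 39.4% (median 38.0%) in SCAF IP lists and 29.1% to 35.2% (median 31.8%) in own inputs (5.90 points, exact permutation p = 0.00216, adjusted p = 0.0693). Here all lists lay below the 47.9% of the tiled windows. CAG with C or G on either side, such as CCAGC, was in 29.6% to 38.6% (median 33.3%) of SCAF IP clusters and 25% to 31.4% (median 27.7%) of own input clusters (5.62 points, exact permutation p = 0.0108, adjusted p = 0.139), against 37.3% of tiled windows. Runs of GGGG, which can share letters with CGG, were in 21.1% to 32.3% (median 23.7%) and 12.2% to 24.4% (median 19.5%; 6.71 points, exact permutation p = 0.0195, adjusted p = 0.139), and in 19.9% of tiled windows. The difference for GGGG had an exact sign-flip p = 0.125 when each IP was set against the input of the same number.

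The polyadenylation signal AATAAA was in 3.38% to 5.34% (median 4.25%) of SCAF IP clusters and in 4.00% to 6.71% (median 5.31%) of own input clusters, below the 7.42% of tiled windows (−1.21 points, exact permutation p = 0.0455, adjusted p = 0.242). Paired by number this difference had an exact sign-flip p = 0.156. GTAAGT, the consensus of the 5′ splice site, was in 2.01% to 2.88% (median 2.35%) of SCAF IP clusters and in 1.79% to 3.60% (median 3.15%) of own input clusters (exact permutation p = 0.0779, adjusted p = 0.356), against 1.84% of tiled windows.

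GC content followed the same order, with 44.8% to 47.9% (median 45.6%) in SCAF IP lists and 40.8% to 45.0% (median 43.8%) in own inputs (2.80 points, exact permutation p = 0.00433, adjusted p = 0.0924, and without replicate 3 an exact permutation p = 0.0571), against 41.6% in tiled windows. C made up 18.05% to 18.84% of the bases in the 6 SCAF IP lists and 16.15% to 17.44% in the 9 inputs, without overlap, whereas the ranges of G overlapped. The part of base composition in the motif differences was not tested.

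The control IP lists, from cells without a tagged protein, were on average at or above the SCAF IP lists in GC content, GGGG and the CAG motif. Their mean GC content was 47.97%, and 4 of 6 SCAF IP lists lay below all of them (exact permutation p = 0.19, adjusted p = 0.508). GGGG was in 39.2% of their clusters on average (exact permutation p = 0.333, adjusted p = 0.671) and the CAG motif in 34.7% (exact permutation p = 0.69, adjusted p = 0.933). CTCC or CACC was in 32.8%, below the SCAF IP mean of 37.8% (exact permutation p = 0.0714, adjusted p = 0.352), and AATAAA in 0.939%, below all 6 SCAF IP lists (exact permutation p = 0.0238, adjusted p = 0.139). These means weight the list of 11 clusters like the others. Replicate 1 held 284 of the 330 control IP clusters, and its GC content was 46.2%. In that replicate GGGG (22.5%) and the CAG motif (30.6%) lay below the SCAF IP means of 25.9% and 33.7%. The higher control IP means for these 2 motifs thus rest on the small lists. AATAAA was in 2.82% of the clusters of replicate 1 and in 0% of those of replicates 2 and 3.

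The IP and input of the same line and number come from the same extract, and set side by side they differed between the lines. For GGGG the IP exceeded its input by 11.4, 13.4 and 13.1 points in the SCAF8 replicates, but by 3.60, −0.766 and −0.543 points in the SCAF4 replicates. For AATAAA the difference was −1.75, −2.30 and −3.32 points for SCAF8 and −1.01, 0.900 and 0.251 points for SCAF4. The means over both lines thus rest on SCAF8 for these motifs. CGG or CGA was higher in the IP in all pairs, by 10.4, 4.33 and 9.31 points for SCAF4 and by 10.1, 11.9 and 11.9 points for SCAF8. GC content was also higher in the IP in all pairs, by 3.26, 0.643 and 0.841 points for SCAF4 and by 3.98, 4.16 and 3.92 points for SCAF8. For the CAG motif the IP exceeded its input by 6.73, 2.65 and 1.49 points for SCAF4 and by 4.07, 11.9 and 6.92 points for SCAF8. The differences between the lines were not tested.

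**Figure D4:**
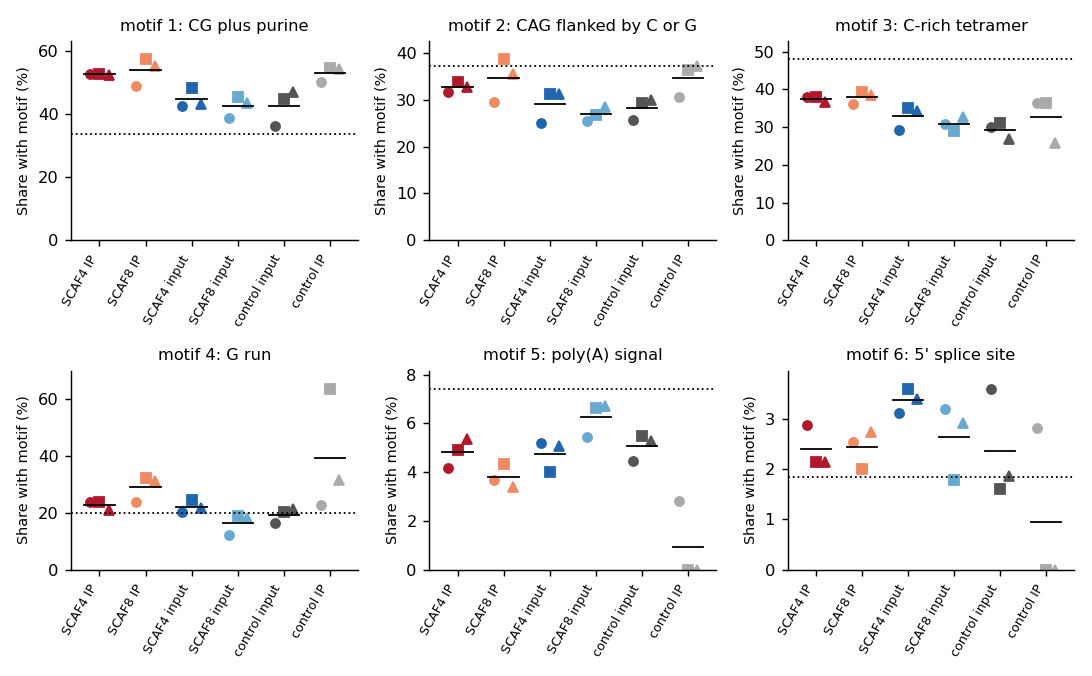
Share of clusters with each motif in 100 nt around the midpoint, in percent, for each list (points, shaped by replicate as in the plot of shares) and group mean (black line). Dotted lines give the share among tiled windows of eligible first introns. Motif 1 is CGG or CGA, motif 2 CAG flanked by C or G on both sides, motif 3 CTCC or CACC, motif 4 GGGG, motif 5 AATAAA and motif 6 GTAAGT. For motifs 1 and 3 the 6 SCAF IP lists lie above the 6 inputs of the same lines.

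Clusters deep in intron 1 were also set against the rest of their own list. CGG or CGA was 4.12 points more frequent than in clusters deep in later introns (6 of 6 SCAF IP lists, exact sign-flip p = 0.0312, adjusted p = 0.041). Against the whole list the difference was −13.7 points (6 of 6 lists). The inputs showed a similar difference to later introns, 4.11 points (8 of 9 lists, exact sign-flip p = 0.0117, adjusted p = 0.0379). Against the whole list it was −14.9 points in the inputs (9 of 9 lists). In later introns CGG or CGA was in 49.2% of SCAF IP and 39.2% of input clusters, a difference between IPs and inputs that was not tested. AATAAA was rarer than in later introns (difference −0.943 points, 6 of 6 lists, exact sign-flip p = 0.0312, adjusted p = 0.041) and 1.19 points more frequent than in the whole list. In the inputs these differences were −1.05 points (positive in 2 of 9 lists) and 1.30 points (positive in 9 of 9). The clusters were 25 nt shorter than those of the whole list, with a median length of 122 nt against 147 nt (6 of 6 SCAF IP lists, exact sign-flip p = 0.0312, adjusted p = 0.041), and 0.750 nt shorter than those in later introns (exact sign-flip p = 0.375, adjusted p = 0.414). In the inputs these 2 differences were −21.9 nt and −6.22 nt (9 of 9 lists each).

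Reproducibility between replicates was lower than for the list as a whole. Of the SCAF IP clusters deep in intron 1, 60.1% ± 17.7 (SD, n = 6) overlapped a cluster of another replicate of the same group, 12.5 points less than for all clusters of the list (6 of 6 lists, exact sign-flip p = 0.0312, adjusted p = 0.041). The difference to later introns was 2.26 points (higher in 5 of 6 lists, exact sign-flip p = 0.0625, adjusted p = 0.0795). In own inputs the share was 45.0% ± 15.2 (SD, n = 6; exact permutation p = 0.147, adjusted p = 0.471). Over all 9 inputs the difference to all clusters of the list was −14.9 points (9 of 9 lists, exact sign-flip p = 0.00391, adjusted p = 0.0149). When sites also found in inputs or the control IP were removed from the IP lists only, the IP-input difference of 15.2 points fell to 2.83 points. The own inputs were left as they were in that comparison. Larger lists also offer more clusters to overlap, and SCAF IP lists held 32056 clusters on average against 8356 in own inputs. The part of list size in these differences was not tested.

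When the clusters of all 18 lists were merged, 5299 regions lay deep in intron 1. Of these, 3117 (58.8%) were in SCAF IP lists only, 765 (14.4%) in inputs only, 1126 (21.2%) in SCAF IP and input lists, and 215 (4.06%) in SCAF IP, input and control IP lists. In later introns the shares were 56.5%, 17.5%, 19.8% and 4.38%, and over all merged regions 65.1%, 6.88%, 16.7% and 8.81%. Regions deep in introns were thus less often in SCAF IP lists only, and more often in inputs only, than regions as a whole, a difference that was not tested. Within each SCAF IP list it was the other way after removal of input and control IP sites. In the SCAF4 replicates 57.7%, 77.5% and 68.5% of the clusters deep in intron 1 remained, against 48.7%, 73.9% and 64.9% of the list. For SCAF8 it was 66.4%, 51.9% and 70.8% against 54.0%, 47.3% and 66.7%, also not tested. Regions of SCAF IP lists only had a median distance of 11237 nt from the gene start, those shared with inputs alone 10565.5 nt and those of inputs only 17740 nt. SCAF IP lists hold more clusters than inputs, which alone gives them more regions of their own.

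Recurrence among the SCAF IP lists fell steeply. Of the merged regions, 2631 were in 1 of the 6 lists, 887 in 2, 445 in 3, 275 in 4, 149 in 5 and 110 in 6. Among the 110 regions in all lists, 7 overlapped no input and no control IP cluster, those shown above. Of the inputs, 14 regions were in all 9 lists. These counts are given for intron 1 only, without the shares over later introns or all merged regions. They therefore do not show a recurrence particular to first introns.

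Regions from at least 2 of the 6 SCAF IP lists, with clusters in at most 1 of the 9 inputs and in no control IP list, are called pooled regions below. There were 1232 deep in intron 1, 4.44% of 27733, in 695 genes, with a median length of 153 nt and a median distance of 9999.5 nt from the gene start. Without the removal of input and control IP sites there were 1884. Leaving out replicate 2 gave 647 and leaving out replicate 3 gave 522. Both proteins contributed to 762 regions (61.9%), SCAF4 lists alone to 324 and SCAF8 lists alone to 146. Any 2 of the 6 lists suffice for a pooled region, so many regions with both proteins arise from the rule alone. These shares were not taken over all pooled regions and do not measure sharing between the proteins.

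SCAF4 and SCAF8 were also taken separately, with regions from at least 2 of 3 replicates. SCAF4 had 672 regions deep in intron 1 in 441 genes and SCAF8 had 397 in 259 genes. Of the SCAF4 regions 19.9% overlapped a SCAF8 region, and of the SCAF8 regions 34.3% overlapped a SCAF4 region. In later introns these shares were 19.8% and 33.6%, and over all regions 31.8% and 57.0%. Between the SCAF4 and SCAF8 lists, the mean share of clusters deep in intron 1 differed by −0.163 points, SCAF4 minus SCAF8 (exact permutation p = 0.8, adjusted p = 0.959) and the density ratio by 0.16 in log2, with the 3 SCAF4 lists above the 3 SCAF8 lists (exact permutation p = 0.1, the smallest that 3 against 3 can give, adjusted p = 0.356). The inputs of these lines differed in the same direction and by more, with a mean log2 ratio of 0.91 for SCAF4 and 0.57 for SCAF8. IP minus own input was −0.01 for SCAF4 and 0.17 for SCAF8.

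The pooled regions were spread over many genes. A single region was found in 480 genes, 2 in 121 genes, and 10 or more in 10 genes, and the 15 genes with most regions held 17.0% of them. The counts below describe genes chosen for their regions and carry no test. Inputs are given as context, since they hold fewer clusters per list.

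ANKRD11, which encodes a chromatin regulator, held 26 pooled regions in a first intron of 71876 nt (chr16:89418369-89490244, minus strand), from 3388 to 65647 nt from the gene start, 20 of them in lists of both proteins. Its clusters numbered 31, 51 and 35 in the SCAF4 IP replicates and 45, 15 and 36 in the SCAF8 IP replicates. The 9 inputs held 109 and the control IP lists 16, and the median share of a list's clusters deep in first introns was 2.37% for SCAF IPs and 2.80% for inputs. ANKRD11 thus stood out in both kinds of lists. ENSG00000288715, a gene without a symbol annotated inside ANKRD11 on the same strand, held 18 more regions in an intron of 101205 nt that runs through the next part of ANKRD11.

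SKI, a repressor of TGF-beta signalling, held 25 regions in an intron of 73242 nt (chr1:2229736-2302977, plus strand), from 8650 to 71992 nt from the gene start. Its clusters numbered 9, 50 and 25 in the SCAF4 IP replicates, 10, 13 and 35 in the SCAF8 IP replicates and 47 in all inputs. SLC7A1 held 18 regions in 41555 nt (chr13:29553861-29595415, minus strand), the nearest 1823 nt from the start. It had 111 SCAF IP and 49 input clusters.

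QSOX2, a sulfhydryl oxidase, and REXO1, an RNA exonuclease, had the densest introns of the 15 genes, with 15 regions each in 18601 and 19570 nt, or 8.52 and 8.61 regions per 10 kb of eligible sequence. In REXO1 the SCAF4 IP replicates held 1, 11 and 5 clusters and the SCAF8 IP replicates 2, 13 and 27, whereas the inputs held 6 in all, with none in 6 of 9 inputs. PIEZO1 had 10 regions, with 65 SCAF IP clusters, 9 input clusters (none in 4 of 9 inputs) and no control IP cluster. MTA1, a subunit of the NuRD complex, had 8 regions, with 36 SCAF IP and 5 input clusters and none in the control IP. These 3 genes had few input clusters next to their IP clusters.

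RPTOR, the Raptor subunit of the TOR kinase complex mTORC1, held 15 regions up to 74745 nt from its start and 70 SCAF IP against 15 input clusters. E2F3, a transcription factor of the cell cycle, held 13 regions, of which 7 were in lists of both proteins. TENT4A, a non-canonical poly(A) polymerase, and TRIO, a guanine nucleotide exchange factor, had 7 each.

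In XKR6, ENSG00000275778 and TENT4A the inputs held nearly as many clusters as the SCAF IPs, 54 against 69 in TENT4A. XKR6 had 15 regions in an intron of 275745 nt, only 2 of them in lists of both proteins. Its clusters numbered 4, 7 and 5 in the SCAF4 IP replicates and 28, 19 and 47 in the SCAF8 IP replicates. The SCAF8 inputs, with 19, 16 and 18, also held more than the SCAF4 inputs, with 9, 1 and 2. The parental inputs held 30, 3 and 9. The difference between the lines was not tested. ENSG00000275778, which overlaps PRH1 and TAS2R14 on the same strand, had 8 regions, 69 SCAF IP and 58 input clusters.

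**Figure D5:**
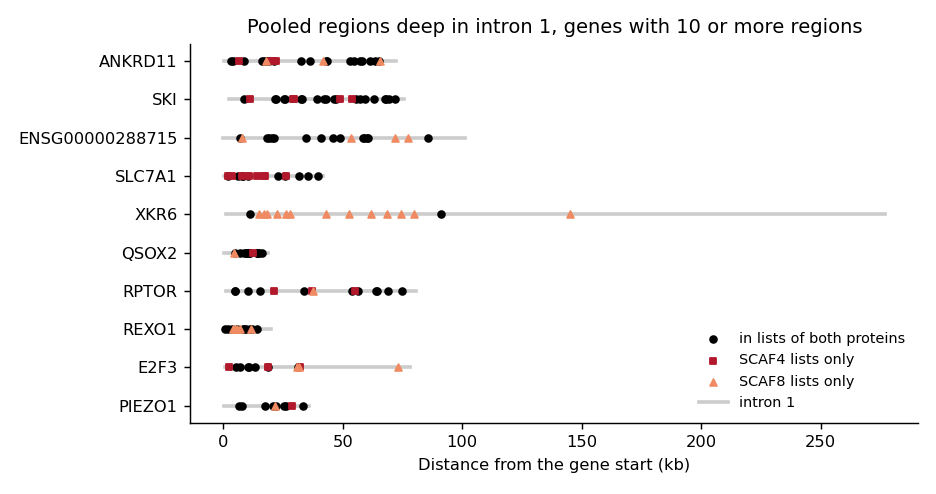
Pooled regions (points) along intron 1 (gray line) of the 10 genes with 10 or more regions, by distance from the gene start in kb. Marks show whether SCAF4 lists, SCAF8 lists or both contributed. The regions of SKI run from 8650 to 71992 nt from the start, and in XKR6 only 2 of 15 regions are of both proteins.

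Of the 12850 genes with an eligible first intron, 5.41% held a pooled region there, and of the 4112 of them that held an input cluster anywhere in the gene, 15% did. Among genes for cleavage, polyadenylation and termination, 6 of 21 genes held such a region. CPSF6, a subunit of cleavage factor I, had 2, at 1238 and 4095 nt from the gene start. XRN2, the exonuclease of transcription termination, had 2, in up to 3 lists. RPRD1B and RPRD2, which bind the C-terminal repeats of RNAPII, had 2 and 3, and SCAF4 and SCAF8 themselves had 2 and 3. The regions in SCAF8 lay 31264 to 38627 nt and those in SCAF4 7858 to 16891 nt from the start.

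Splicing factors held regions in 9 of 25 genes. HNRNPC, a protein that binds U-rich pre-mRNA, had 2 regions, the one 10185 nt from the start in 6 lists and the one at 10516 nt in 2. U2AF2, which recognises the polypyrimidine tract, and RBM25 had 2 each, as did RBFOX2, and U2AF1, SON, SRRM2, SNRPA and SNRNP70 had 1 each. Chromatin regulators held regions in 11 of 32 genes, among them the remodelling subunit ARID1A with 5, the acetyltransferase CREBBP with 3 and CHD6 with 2. ASH1L, CHD1, DOT1L, EP300, KMT2C, KMT2E and SETD2 had 1 each.

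Ubiquitin ligases and deubiquitinases held regions in 8 of 32 genes, among them USP10 with 3, FBXW7 with 2 and BIRC6, SMURF1, USP25, USP7 and USP9X with 1. TGF-beta, WNT, NOTCH, Hippo and TOR genes held them in 5 of 23, RPTOR, AXIN1, MAML1, SMAD3 and SMAD4. Transcription elongation factors held them in 1 of 19, ELL, 42006 nt from the start. Restricted to genes with an input cluster, the shares were 30.0% for cleavage and termination, 37.5% for splicing, 39.3% for chromatin, 29.2% for ubiquitin, 31.25% for signalling and 8.33% for elongation, beside the 15% of all such genes. These shares were not tested, and the median eligible length ran from 3642 nt for splicing genes to 26591 nt for ubiquitin genes.

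The limit of 500 nt left out 3486 of 12001 SCAF IP clusters whose midpoint lay in intron 1 outside exons, and 942 of 4980 input clusters. In the last 100 nt before the limit lay 475 SCAF IP clusters, and in the first 100 nt past it lay 428. In the inputs these numbers were 142 and 127.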

How the data were processed

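PAR-CLIP clusters from 36 libraries in 18 lists were used. Per the paper's methods, the authors removed adapters, aligned reads with Bowtie2 (2.2.9), joined soluble and chromatin reads of each replicate and called clusters with PARalyzer. The deposited BED files give coordinates on GRCh38 and a score from 0.501 to 1 that the file headers do not name. Here it served for ranks inside each list. Starts were read as counted from 0, and a shift of 1 nt cannot be told apart. Replicate 1 was sequenced with longer reads. Total read counts are not used here, so the depth behind a cluster is unknown.

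Clusters were placed by their midpoint on GENCODE 44 with Python 3.11.15, pandas 2.3.3, numpy 2.4.6, scipy 1.17.1 and pysam 0.24.0, and plotted with matplotlib 3.10.9. Groups came from the labels, and 0 columns were left unused. A list was the replicate, and nothing says that replicates were separate cultures beyond the study's term biological replicates. Lists were compared by two-sided exact permutation of list labels, and values within lists by exact sign flips, with Benjamini-Hochberg adjustment over 64 and 42 tests. Densities by distance were summed over genes. Scripts were tested on simulated data. IP and input of a number share an extract, and their deviations in clusters per gene, over 131 genes, correlated with r from 0.0634 to 0.394, so a fit paired by number was an alternative.

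Genes named are the 15 with most pooled regions, then the 12 regions in most SCAF IP lists without input or control IP clusters, the 6 regions in most input and control IP lists, and members of 6 gene lists with a pooled region. Some genes that this rule names are not reported here. Members and lists were chosen with earlier results of these data known. The share of repeat-masked bases was not run, since the genome used carries no masking. Other alternatives were the distance to exons, all 9 inputs, clusters of higher score, removal of background sites, another isoform choice and leaving out each replicate.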

Additional observations from a re-analysis of the deposited data

Results flagged for a closer look

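The lean of clusters towards the 5′ end of intron 1 differed from the input of the same extract in opposite directions in the 2 tagged lines. In the SCAF4 line the IP shift minus the input shift was 0.0131, 0.0204 and 0.0208 of the intron length (mean 0.0181), and in the SCAF8 line it was −0.00149, −0.00493 and −0.00450 (mean −0.00364). A measure was flagged only if all 3 SCAF4 pairs moved one way and all 3 SCAF8 pairs the other way. The agreement among the pairs of a line was thus fixed by the choice among the measures screened. The difference between the lines was not tested.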

How the results depend on the processing

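Of 110 values under alternatives other than leaving out a replicate, 100 kept their direction and side of p = 0.05 (exact tests, not adjusted) or, for counts, stayed within 1.5 times. The share of clusters deep in intron 1, IP minus own inputs, was −1.40 points with all 9 inputs (exact permutation p = 0.0388) and −2.12 points with the higher-scoring clusters (cut at the median score of each list) (exact permutation p = 0.0108), and −1.01 to 0.0251 points over the sets without one replicate, with the sign turned without replicate 1. In the fit with the replicate block (exact sign flips over 6 pairs), AATAAA differed by −1.21 points (p = 0.156) and GGGG by 6.71 points (p = 0.125). No other call changed with the block. CGG or CGA, CTCC or CACC, the CAG motif and GC each had an exact sign-flip p = 0.0312 there, the smallest for 6 pairs. AATAAA at 250 nt from exons gave −0.995 points (exact permutation p = 0.0801). GTAAGT gave −0.608 points at 1000 nt (exact permutation p = 0.0411) and −0.662 points with the higher-scoring clusters (exact permutation p = 0.026). The log2 density ratio turned to −0.26 at matched distance, summed over the bands. Pooled regions numbered 509 with at least 3 lists and 1884 without removal.

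Without one replicate, values ran from 2.39 to 3.01 points for GC, 9.19 to 10.4 for CGG or CGA, 4.80 to 6.33 for the CAG motif, 5.34 to 6.81 for CTCC or CACC, −1.46 to −1.04 for AATAAA, −0.662 to −0.523 for GTAAGT and 6.31 to 6.92 for GGGG. They ran from 0.859 to 1.86 points for the first-intron share of deep intronic clusters, −0.0520 to −0.0190 for log10 distance and 10.9 to 14.6 points for replicated clusters. For the log2 density ratio they ran from 0.79 to 0.87, and for log2 observed over expected within genes from 0.29 to 0.30. The shift ran from −0.124 to −0.117, and pooled regions from 522 to 1008. Exact sign flips over 4 lists cannot go below p = 0.125. The exact permutation p exceeded 0.05 for GC without replicate 3 (0.0571), for the CAG motif without replicate 2 or 3 (0.0571 each), and for AATAAA and GGGG without any replicate. For GTAAGT it was 0.0286 without replicate 2. The cause of these changes was not tested.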
